A study of Homo sapiens with 6 samples.

Results

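The genes described here are 9 that handle cholesterol on its way out of a cell: APOE, APOC1, ABCA1, ABCG1, NR1H2, NR1H3, LPCAT3, NPC1 and NPC2. They were taken by gene symbol, and the group was selected on the change of its genes after SPOP knockdown in these same libraries, so the knockdown values are given as a description and carry no test. Of 24551 gene rows in the tables, 8 of the 9 genes had a row of their own. NPC2 shared a row with the microRNA gene MIR4709, which lies inside it. Of the 8, 7 reached 1 FPKM on average (FPKM, a read level corrected for transcript length and for the size of the library), as did 11865 rows in all. ABCG1 was below that level.

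mRNA was sequenced in DU145, an established line of prostate carcinoma, and in 769-P, an established line of renal cell adenocarcinoma. Each line was given a negative control siRNA (NC), SPOP siRNA 1 or SPOP siRNA 2. SPOP is the subunit of a CUL3 ubiquitin ligase that picks the proteins to be degraded. This gives 6 libraries, 3 per line, with 1 library for each treatment, so the 2 siRNAs of a line share a single control, and each line stands for its tissue only as 1 cultured line does. No genetic alteration was introduced, and neither line was compared with normal prostate or kidney.

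Cells cannot break down the sterol ring, so surplus cholesterol has to be stored or exported. In the lysosome NPC2 and NPC1 pass on cholesterol that came in with lipoproteins, at the plasma membrane ABCA1 and ABCG1 hand it to acceptor particles, and APOE and APOC1 are apolipoproteins of such particles. The liver X receptors, LXRα (NR1H3) and LXRβ (NR1H2), sense oxysterols and switch on many of these genes, among them ABCA1, ABCG1, APOE, APOC1 and LPCAT3, whose product puts polyunsaturated chains into membrane phospholipids. They bind DNA with a retinoid X receptor at a repeat of AGGTCA with 4 bases between the copies.

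APOE and APOC1 lie next to each other and ABCA1 has a known LXR element, so the 250 bases before the start site of each are shown, on the strand of the gene, from the RefSeq promoter table matched to GRCh37. The APOE stretch is at chr19:45408803-45409052 (+ strand), that of APOC1 at chr19:45417679-45417928 (+ strand) and that of ABCA1 at chr9:107690437-107690686 (- strand). By the GENCODE gene model (chr19:45417504-45422606) the APOC1 stretch lies inside the gene, so it comes before the RefSeq start site only. In APOE and APOC1 the capitals mark GC boxes (GGGCGG on either strand). In ABCA1 they mark the 16 bases that match the AGGTCA repeat with up to 2 mismatches.
APOE: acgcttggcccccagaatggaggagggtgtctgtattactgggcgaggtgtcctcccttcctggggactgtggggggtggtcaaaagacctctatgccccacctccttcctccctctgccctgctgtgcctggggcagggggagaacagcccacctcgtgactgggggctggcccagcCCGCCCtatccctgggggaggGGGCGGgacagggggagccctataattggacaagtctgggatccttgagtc
APOC1: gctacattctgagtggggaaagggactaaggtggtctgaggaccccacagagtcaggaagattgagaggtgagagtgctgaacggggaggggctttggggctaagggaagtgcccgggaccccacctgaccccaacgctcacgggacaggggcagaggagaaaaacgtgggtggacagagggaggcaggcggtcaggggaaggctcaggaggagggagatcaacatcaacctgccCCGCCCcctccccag
ABCA1: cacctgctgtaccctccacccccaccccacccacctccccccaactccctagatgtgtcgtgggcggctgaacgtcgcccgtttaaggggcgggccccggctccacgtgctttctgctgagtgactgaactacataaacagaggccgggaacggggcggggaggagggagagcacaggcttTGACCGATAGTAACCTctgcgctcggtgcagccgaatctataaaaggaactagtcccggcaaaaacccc
The ABCA1 match runs from position -69 to -54, counted from the start site. The search with up to 2 mismatches was chosen after the stricter ones had been seen, and 2.34% of the 35116 promoters in the table, each 300 bases long (250 before and 50 after the start), hold such a match on either strand. With at most 1 mismatch the share is 0.205%, and with none it is 0.0199%. None of the 14 windows of the 8 genes with an entry met either of the stricter forms. In ABCA1 alone among the 14 windows the 2-mismatch form was met, and ABCG1 had no entry. GC boxes were found in the first APOE window (2), in APOC1 (1), in ABCA1 (3), in NR1H2 (2), in NPC1 (2), in LPCAT3 (5), in 2 of the 4 NR1H3 windows (3 and 2) and in the NPC2 windows (7 and 9), against 45.0% of all promoters with at least 1. ABCA1 also holds TATAAA and the E-box CACGTG, found in 11.5% and 7.26% of all promoters. The first APOE window and the APOC1 window hold 8 CpG each, against a median of 14 over all promoters, whereas ABCA1 holds 23, NR1H2 22, NPC1 29 and LPCAT3 30. These matches describe the letters in the windows only.

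In the plots of FPKM by library, APOE and APOC1 had much higher levels in DU145 and ABCA1 in 769-P. NR1H2, LPCAT3, NPC1 and the NPC2 row had substantial levels in both lines, NR1H3 was low in both, and ABCG1 stayed below 1 FPKM.

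**Figure D1:**
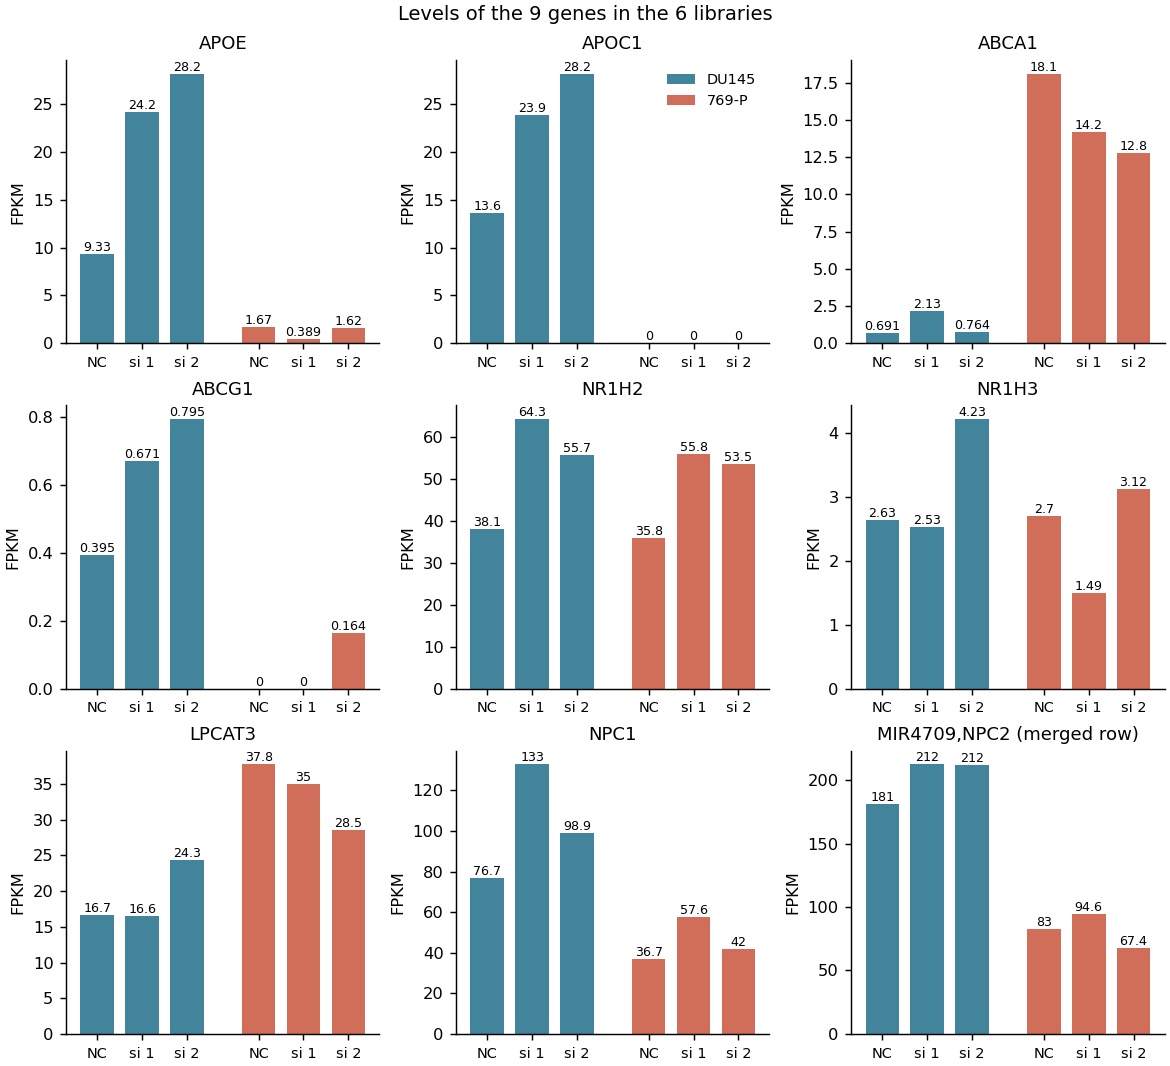
FPKM (vertical axes, each from 0) of the 9 genes in the 6 libraries; each bar is 1 library, blue for DU145 and red for 769-P, with NC, SPOP siRNA 1 (si 1) and SPOP siRNA 2 (si 2) from left to right. APOE and APOC1 are highest in the 2 DU145 knockdown libraries, ABCA1 is highest in the 769-P libraries, and NR1H2 is higher in every knockdown library than in its control.

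A few facts of the libraries touch these values. SPOP itself was at 17.2% and 18.4% of the control in DU145 and at 13.2% and 12.0% in 769-P. The files give no counts, and the spacing of low FPKM values puts the depth of the libraries between 0.680 and 1.41 times that of 769-P NC. Olfactory receptor genes, which neither tissue uses, were above 0 for 301 of 384 genes in DU145 NC and 250 of 384 in 769-P siRNA 2, with means of 0.345 and 0.227 FPKM, but for 4 to 6 of them in the other 4 libraries, so values near those means in those 2 libraries cannot be told from that low level. Of the kidney markers, the transcription factor PAX8 was at 106 to 125 FPKM in 769-P and 1.10 to 1.47 FPKM in DU145, and CA9 was listed at 0 in 769-P. DU145 had the epithelial marker EPCAM at 27.6 to 36.2 FPKM, but KLK3 and HOXB13, which mark luminal prostate cells, did not exceed 0.312 FPKM in it. The 8 macrophage and leukocyte markers, for cells rich in APOE and APOC1, summed to 0.310 to 3.04 FPKM per library, and PTPRC, which marks all leukocytes, did not exceed 0.0347 FPKM. In bulk RNA, fewer cells of a type and less RNA per cell cannot be told apart.

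APOE, the main apolipoprotein made outside the liver, was at 9.33 FPKM in DU145 NC, 24.2 FPKM with siRNA 1 and 28.2 FPKM with siRNA 2. Both DU145 knockdown libraries were above the control, by 1.28 and 1.5 in log2(FPKM + 1), the scale of all changes given here, which understates the change of genes at low FPKM. Over the 2 knockdown libraries APOE averaged 26.2 ± 2.86 FPKM (SD, n = 2). In 769-P, APOE was at 1.67 FPKM in NC, 0.389 FPKM with siRNA 1 and 1.62 FPKM with siRNA 2. The 769-P knockdown libraries differed from each other, with changes of -0.94 and -0.03.

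APOC1, a small apolipoprotein encoded 4854 bp downstream of APOE, was at 13.6 FPKM in DU145 NC, 23.9 FPKM with siRNA 1 and 28.2 FPKM with siRNA 2. Its changes were 0.77 and 1.0, so both knockdown libraries again stood above the control. In all 3 libraries of 769-P, APOC1 was listed at 0. APOE (GRCh37 chr19:45409048-45412650) and APOC1 (chr19:45417504-45422606) are both on the + strand.

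ABCA1, the exporter that loads lipid-poor apolipoproteins, was at 0.691 FPKM in DU145 NC, 2.13 FPKM with siRNA 1 and 0.764 FPKM with siRNA 2. The higher value was seen with siRNA 1 only, with changes of 0.89 and 0.06. In 769-P, ABCA1 was at 18.1 FPKM in NC, 14.2 FPKM with siRNA 1 and 12.8 FPKM with siRNA 2, and both knockdown libraries were lower, by -0.33 and -0.47. ABCG1, the exporter that loads mature HDL, was at 0.395, 0.671 and 0.795 FPKM in DU145 and at 0, 0 and 0.164 FPKM in 769-P. The ABCG1 level in DU145 NC lies close to the mean of the olfactory receptor genes in that library, and the level in 769-P siRNA 2 lies below the mean in that one. ABCA1 is at chr9:107543287-107690436 (- strand) and ABCG1 at chr21:43619799-43717354 (+ strand).

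NR1H2 (LXRβ), the receptor found in most tissues, was at 38.1 FPKM in DU145 NC, 64.3 FPKM with siRNA 1 and 55.7 FPKM with siRNA 2. In 769-P it was at 35.8, 55.8 and 53.5 FPKM in the same order. NR1H2 was therefore higher in all 4 knockdown libraries, by 0.74 and 0.54 in DU145 and by 0.63 and 0.57 in 769-P. The 4 ratios on the scale with 1 added lie between 1.45 and 1.67, and with siRNA 2 they fell just short of 1.5 in both lines. Of the 11865 genes tested, 146 (1.23%) had 4 changes each at least as large as the smallest of NR1H2. That cutoff was taken from NR1H2 itself on the contrast that had selected the group, so nothing is read from this share. In GENCODE, NR1H2 (chr19:50832910-50886645, + strand) overlaps NAPSA and NAPSB on the opposite strand. Its RefSeq promoter window (chr19:50879464-50879763) lies well inside that span, so the overlap depends on the gene model. Which model the FPKM values used for NR1H2, and whether the counting used strand, is not given in the sources used here.

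NR1H3 (LXRα), the receptor typical of liver, fat and macrophages, was lower than NR1H2 in each library. It was at 2.63, 2.53 and 4.23 FPKM in DU145 and at 2.70, 1.49 and 3.12 FPKM in 769-P, in the order NC, siRNA 1, siRNA 2. The siRNAs did not move NR1H3 the same way, with changes of -0.04 and 0.52 in DU145 and -0.57 and 0.16 in 769-P. NR1H3 (chr11:47269851-47290584, + strand) overlaps ACP2 on the opposite strand.

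LPCAT3 was at 16.7 FPKM in DU145 NC, 16.6 FPKM with siRNA 1 and 24.3 FPKM with siRNA 2. In 769-P it was at 37.8, 35.0 and 28.5 FPKM in that order. Only DU145 siRNA 2 was above its control, with a change of 0.52, and both 769-P changes were below 0 (-0.11 and -0.39). LPCAT3 (chr12:7085347-7125781, - strand) overlaps EMG1 and C1S on the opposite strand.

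NPC1, the membrane protein that takes cholesterol out of the lysosome, was at 76.7 FPKM in DU145 NC, 133 FPKM with siRNA 1 and 98.9 FPKM with siRNA 2. In 769-P it was at 36.7, 57.6 and 42.0 FPKM. Like NR1H2, NPC1 was above its control in all 4 knockdown libraries, by 0.78 and 0.36 in DU145 and 0.64 and 0.19 in 769-P, and the larger change was with siRNA 1 in both. Above 0 in all 4 changes were 2 of the 7 genes, NR1H2 and NPC1, and 20.1% of all genes tested. The row shared by MIR4709 and NPC2, the soluble partner that hands cholesterol to NPC1, was at 181, 212 and 212 FPKM in DU145 and at 83.0, 94.6 and 67.4 FPKM in 769-P. Its changes were small in DU145 (0.23 and 0.22) and of opposite sign in 769-P (0.19 and -0.30). NPC1 is at chr18:21086148-21166470 (- strand) and overlaps RMC1 on the opposite strand, and NPC2 is at chr14:74942895-74960880 (- strand) and overlaps ISCA2.

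Read against all genes, 2 of the 7 (APOE and APOC1) were at least 1.5-fold higher with both siRNAs in DU145, a rule that 4.72% of all genes met, and none was 1.5-fold lower, as 1.19% of all genes were. APOE alone was 2-fold higher with both siRNAs, as 0.666% of all genes were. In 769-P none of the 7 was past 1.5-fold in either direction, against 3.6% of all genes higher and 3.73% lower. As the genes were selected on this contrast, nothing is read from these shares. The smallest change of the 2 genes that met the 1.5-fold rule was that of APOC1 with siRNA 1 (0.77), and just outside the rule was NR1H2 with siRNA 2 in both lines (0.54 and 0.57). With SPOP siRNA 1 alone, 5 genes were past 1.5-fold in DU145 (ABCA1, NR1H2 and NPC1 in addition) and 3 in 769-P (APOE lower, NR1H2 and NPC1 higher). The shares above are for both siRNAs. The share of all genes past 1.5-fold with siRNA 1 alone was not counted, so nothing is read from these counts. The median of the 7 mean changes was 0.57 in DU145 and -0.21 in 769-P, and the median over all genes tested was 0.09 and -0.03.

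**Figure D2:**
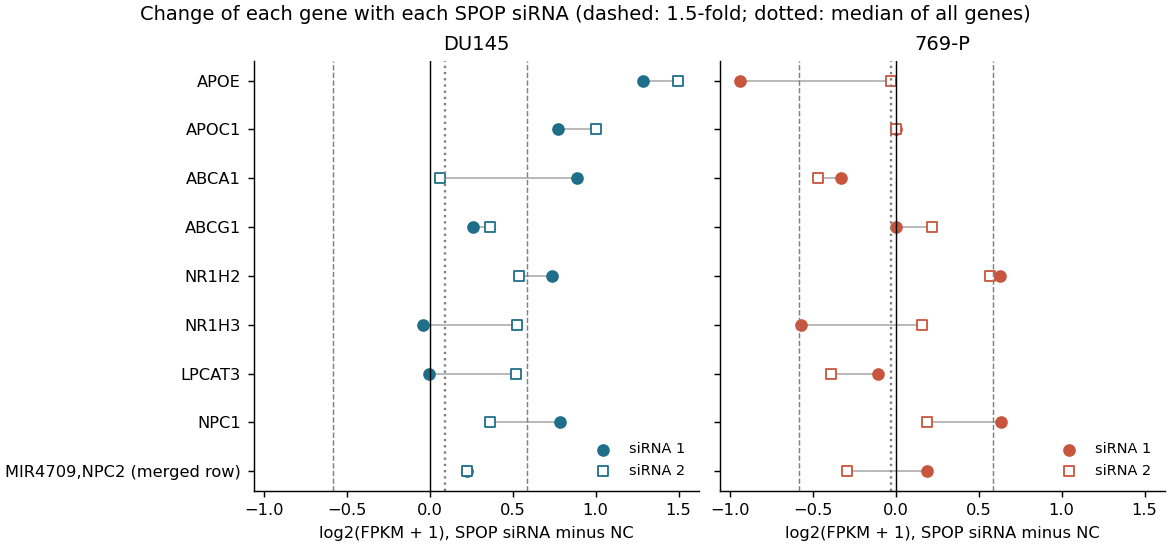
Change in log2(FPKM + 1) of each gene with SPOP siRNA 1 (filled circles) and SPOP siRNA 2 (open squares) over the NC library of the same line, DU145 on the left and 769-P on the right. Dashed lines mark 1.5-fold and dotted lines the median of all genes tested; APOE and APOC1 have both points past the right dashed line in DU145, and in 769-P no gene has both points past a dashed line.

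How do the lines differ in these genes, apart from the knockdown? The genes were selected on the knockdown rather than on this contrast, though with earlier results of these data known, and the contrast was tested with limma over all 11865 genes, as the mean of the 3 DU145 libraries against that of the 3 769-P libraries. Of the 7 genes, 5 differed at an adjusted p under 0.05: APOE, APOC1 and NPC1 were higher in DU145, and ABCA1 and LPCAT3 were higher in 769-P. Differences between these lines were common, with 29.4% of all genes higher in DU145 and 16.1% higher in 769-P, so 45.5% in all. Of these calls 64.6% were higher in DU145, and 48.4% after quantile normalization, which moved the median line difference of all genes from 0.16 to -0.05 and left the same 5 genes called in the same directions. The adjusted p rests on the spread between the 2 siRNA libraries of a line, which are repeats of 1 line each. Organ of origin and any other feature in which the lines differ cannot be told apart.

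APOE had a mean of 20.6 FPKM in DU145 and 1.22 FPKM in 769-P, a difference of 3.20 ± 0.28 in log2(FPKM + 1) (SE, limma adjusted p = 0.000817). The lines did not overlap, and between the NC libraries alone DU145 was 5.60 times as high. APOC1 had a mean of 21.9 FPKM in DU145 and was listed at 0 in 769-P. Its fitted difference of 4.46 ± 0.17 (limma adjusted p = 0.000193) depends on the 1 FPKM that was added and is 7.72 with 0.1 added, so no ratio is given. APOC1 passed the filter on low values only through DU145, so a difference was bound to appear and its adjusted p and its place among the 5 carry no weight.

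ABCA1 went the other way: its mean of 15.1 FPKM in 769-P was 12.6 times that of 1.20 FPKM in DU145, and the difference was -2.92 ± 0.26 (DU145 minus 769-P, limma adjusted p = 0.000858). Between the controls alone the ratio was 26.2. It rests on 0.691 FPKM in DU145 NC, where the olfactory receptor genes had a mean of 0.345 FPKM, so its size is uncertain. The line with the higher APOE and APOC1 was thus the line with the lower ABCA1, in each of its 3 libraries. LPCAT3 was also higher in 769-P, 33.8 against 19.2 FPKM, with a difference of -0.80 ± 0.20 (limma adjusted p = 0.0251). Its adjusted p was between 0.0516 and 0.113 when DU145 NC, DU145 siRNA 1 or any of the 3 libraries of 769-P was left out.

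The lysosomal genes were higher in DU145. NPC1 had means of 103 and 45.4 FPKM in DU145 and 769-P, a difference of 1.15 ± 0.20 (limma adjusted p = 0.00723), and the row of MIR4709 and NPC2 had means of 202 and 81.7 FPKM, a difference of 1.31 ± 0.17 (limma adjusted p = 0.00297). The receptors did not differ by this test. NR1H2 had means of 52.7 and 48.4 FPKM and a difference of 0.11 ± 0.14 (limma adjusted p = 0.538), and NR1H3 had means of 3.13 and 2.44 FPKM and a difference of 0.27 ± 0.28 (limma adjusted p = 0.459). Over all alternatives run, these differences ranged from -0.08 to 0.33 and from -0.13 to 0.42, so their sign depended on the setting. For the other genes tested the sign did not.

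**Figure D3:**
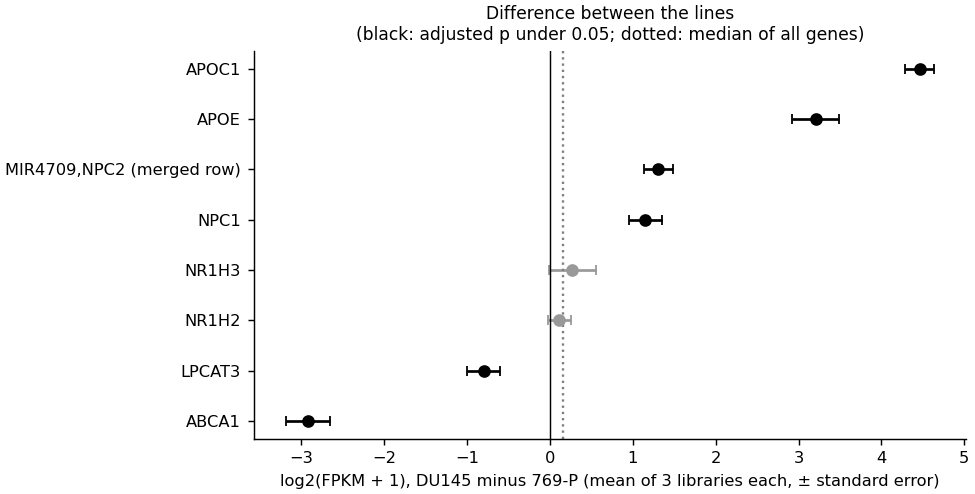
Difference in log2(FPKM + 1) between DU145 and 769-P (mean of 3 libraries each; bars are the standard error from limma), positive where DU145 is higher. APOC1, APOE, NPC1 and the NPC2 row lie to the right and ABCA1 and LPCAT3 to the left, all in black for an adjusted p under 0.05; NR1H2 and NR1H3 (grey) lie near the dotted median of all genes, 0.16.

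FPKM is scaled to transcript length, so levels can be ordered between genes. In DU145 the order of mean FPKM was the NPC2 row, NPC1, NR1H2, APOC1, APOE, LPCAT3, NR1H3, ABCA1 and ABCG1. The libraries of APOC1 and APOE overlapped, as did those of APOE and LPCAT3 and those of ABCA1 and ABCG1. In 769-P it was the NPC2 row, NR1H2, NPC1, LPCAT3, ABCA1, NR1H3, APOE, ABCG1 and APOC1. There NR1H2 and NPC1, NPC1 and LPCAT3, NR1H3 and APOE, and ABCG1 and APOC1 overlapped with their neighbour. The NPC2 row was first in both lines, and APOC1 moved from the middle of the order to its end.

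APOE and APOC1 sit on chromosome 19 among genes of mixed function, 3 of them apolipoprotein genes or their copies (APOC1P1, APOC4 and APOC2), and 10 of the 13 listed neighbours had a mean of at least 1 FPKM. In DU145, 2 of them were at least 1.5-fold higher with both siRNAs and 1 was lower, against 4.72% and 1.19% of all genes. BCAM, a laminin-binding cell surface protein, was at 43.2 FPKM in NC and 94.6 and 80.7 FPKM with the siRNAs. CBLC, a ubiquitin ligase of the CBL family, was at 6.19, 12.4 and 13.3 FPKM in the same order. RELB, an NF-κB subunit, was at 28.6, 15.3 and 18.1 FPKM. By limma over all genes their adjusted p was 0.725, 0.719 and 0.789, in a test that SPOP itself, at 17.2% and 18.4% of its control, did not pass in DU145 (adjusted p = 0.134), so these values say little either way.

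The genes next to APOE did not all stand with it. NECTIN2 (PVRL2 in the tables), an adhesion receptor 16.6 kb upstream of APOE, had DU145 changes of 0.81 and 0.50. TOMM40, which encodes the mitochondrial import pore and ends 2102 bp upstream of APOE, had changes of -0.05 and 0.19, within 0.2 of its control, at 131, 126 and 149 FPKM. BCL3, an NF-κB partner, was higher with siRNA 1 only (0.80 and 0.01), and CLPTM1, on the other side of APOC1, had changes of 0.06 and 0.24. The pseudogene APOC1P1, a near copy of APOC1 that could take some of its reads, was listed at 0 in 5 libraries and was at 0.512 FPKM in DU145 siRNA 2. Of CLASRP, ZNF296 and GEMIN7, farther out, none was past 1.5-fold with either siRNA in DU145. APOC2 and APOC4 share a row that was listed at 0 in all 6 libraries.

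In 769-P no neighbour was past 1.5-fold with both siRNAs, and the changes of the 10 tested had a median of -0.04. Between the lines, 5 of the 10 were higher in DU145 by limma and none was higher in 769-P, against 29.4% and 16.1% of all genes. BCAM differed by 5.07 ± 0.18 (limma adjusted p = 0.000171) and TOMM40 by -0.27 ± 0.14 (limma adjusted p = 0.182). CBLC, at 0.165, 0 and 0 FPKM in 769-P, passed the filter only through DU145, where its mean was 10.6 FPKM, and so did ZNF296, with means of 4.65 FPKM in DU145 and 0.333 FPKM in 769-P, so these 2 of the 5 carry no weight.

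**Figure D4:**
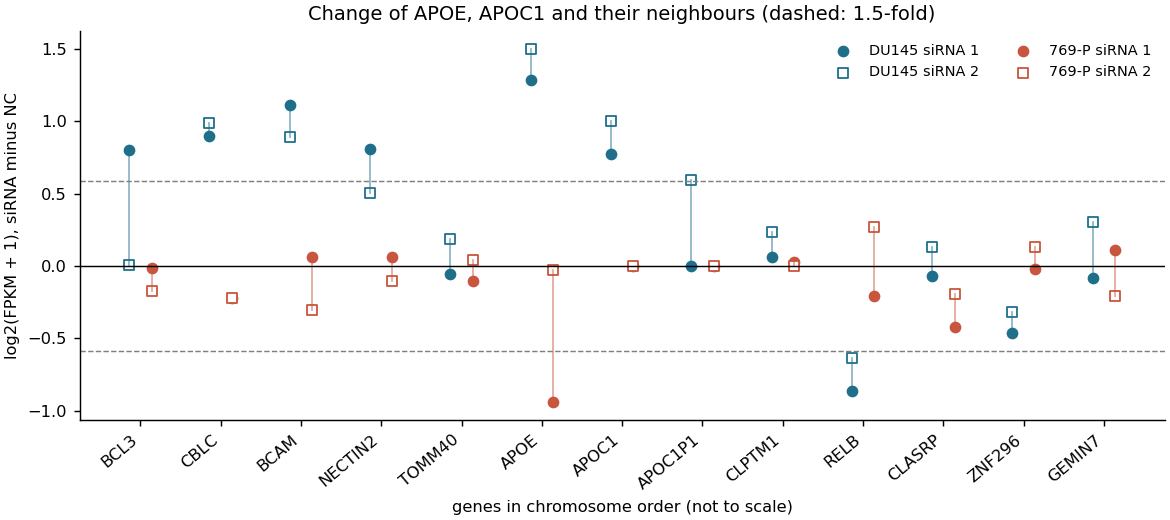
Change in log2(FPKM + 1) of APOE, APOC1 and 11 neighbours with each SPOP siRNA over the NC library (circles siRNA 1, squares siRNA 2; blue DU145, red 769-P), in chromosome order but not to scale. In DU145 CBLC, BCAM, APOE and APOC1 have both points above the upper 1.5-fold line and RELB has both below the lower line. TOMM40, between NECTIN2 and APOE, has its DU145 points at -0.05 and 0.19.

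The rest of the pathway was read from 10 lists of 141 genes that hold none of the 9. Of these, 94 had a mean of at least 1 FPKM. In DU145, 6 of the 94 were at least 1.5-fold higher with both siRNAs and 1 was lower, against the 4.72% and 1.19% of all genes above. In 769-P, 1 was higher and 6 were lower, against 3.6% and 3.73% of all genes. None of the 94 passed limma for the knockdown in either line, where 0.135% (DU145) and 0.101% (769-P) of all genes passed. With 1 control per line this test has 2 residual degrees of freedom, and SPOP itself did not pass it (adjusted p = 0.134 in DU145 and 0.0948 in 769-P), so a miss says little. At an unadjusted p under 0.05 in limma there were 12 of the 94 in DU145 and 7 in 769-P, against 6.27% and 6.97% of all genes. The comparisons of the 2 siRNAs share the control library, so a deviation of that library enters both.

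Of the other LXR targets, such as SREBF1 and PLTP, none of the 8 tested was past 1.5-fold with both siRNAs in either line, with a median change of 0.38 in DU145 and 0.12 in 769-P. Picked after its values were seen, SREBF1, the regulator of fatty acid synthesis, had DU145 changes of 0.53 and 0.70. In the same list SMPDL3A (-0.47 and -0.57) and MLXIPL (-0.32 and -0.30) were lower in DU145 with both siRNAs. Of 13 LXR partners and coregulators, PPARD, a fatty acid-sensing receptor that also pairs with retinoid X receptors, was higher in DU145 (22.8 FPKM in NC, 51.4 and 35.5 with the siRNAs). TBL1XR1, a subunit of the corepressor complex, was lower in 769-P (6.33, 3.52 and 3.46 FPKM). RXRA shared a row with MIR4669, at 13.5, 18.7 and 18.7 FPKM in DU145 and 27.1, 30.6 and 27.2 FPKM in 769-P. RXRB was listed at 0 in all 6 libraries. Of the oxysterol enzymes only 2 of 9 were tested, and neither was past 1.5-fold with both siRNAs in either line.

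Among 19 genes of cholesterol transfer and storage, OSBPL2, a sterol-binding protein, was higher in DU145 (3.94 FPKM in NC, 10.1 and 8.51 with the siRNAs). In 769-P, STARD4, a cholesterol carrier of the cytosol, was lower (5.28, 1.05 and 3.09 FPKM), as was LAMP2, a lysosomal membrane protein (21.5, 12.3 and 13.2 FPKM). Of 11 lipoprotein receptors, LRP1, a large endocytic receptor for APOE particles, was higher in 769-P (1.18, 3.28 and 2.62 FPKM), and LRP8, the APOE receptor of neurons, was lower (16.2, 6.18 and 7.23 FPKM). In DU145 neither passed with both siRNAs. Of 8 genes of phospholipid remodelling, LPCAT1, a relative of LPCAT3 in function that favours saturated chains, was higher in DU145 (45.6, 79.5 and 115.6 FPKM), as was the phospholipase PLA2G6 (1.66, 3.89 and 3.44 FPKM). Neither was past 1.5-fold with both siRNAs in 769-P.

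In the sterol synthesis list, driven by SREBP2 when cells lack cholesterol, none of 12 was past 1.5-fold with both siRNAs in DU145 (median change 0.37), and SC5D was lower in 769-P (2.67, 1.24 and 1.37 FPKM; median of the list -0.24). Of 6 other apolipoproteins and lipoprotein enzymes tested, APOL6 was lower in 769-P (2.90, 1.29 and 1.20 FPKM), and of 5 other ABC lipid transporters none was past 1.5-fold with both siRNAs in either line. Among the apolipoproteins tested, APOE and APOC1 were past 1.5-fold with both siRNAs in DU145, the contrast that had selected them. CLU, another apolipoprotein, was at 79.0 FPKM in DU145 NC and 113 and 173 FPKM with the siRNAs. Its changes were 0.51 and 1.12, so it was past 1.5-fold with siRNA 2 only. APOL1 (-0.63 and -0.39) and APOL2 (-0.15 and -0.24) were lower in DU145 with both siRNAs.

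**Figure D5:**
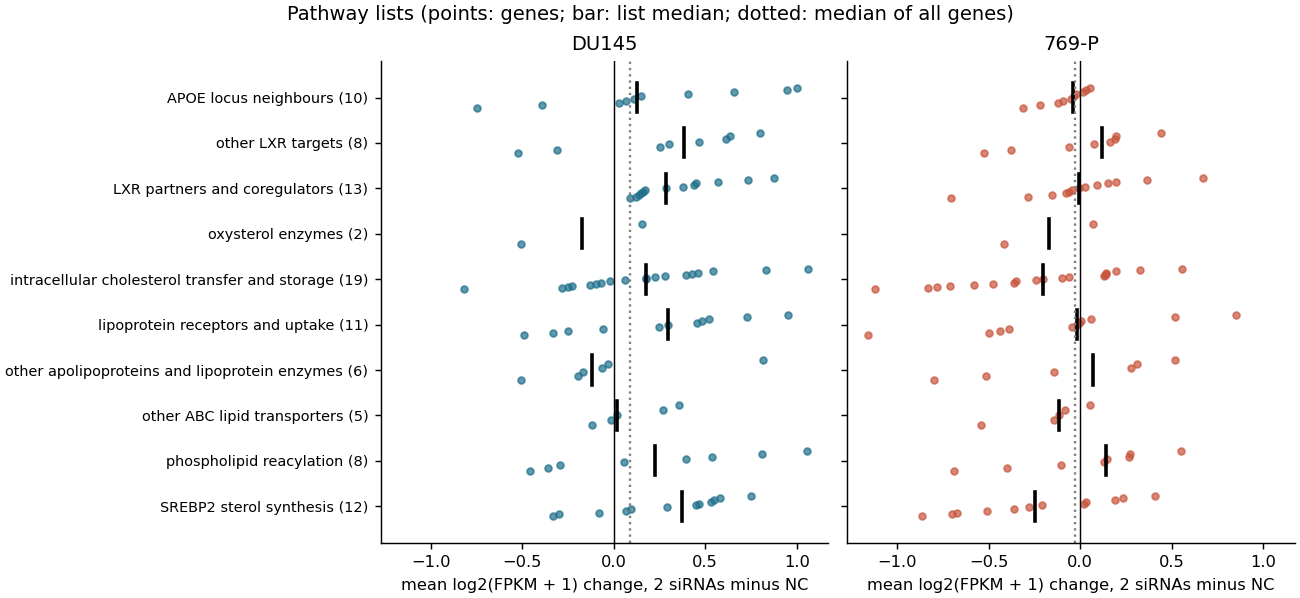
Mean change in log2(FPKM + 1) over the 2 SPOP siRNAs for each tested gene (points) of the 10 pathway lists, with the number of genes in brackets, DU145 on the left and 769-P on the right. Black bars are list medians and dotted lines the median of all genes (0.09 in DU145, -0.03 in 769-P); the sterol synthesis list has a median of 0.37 on the left and -0.24 on the right.

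Which genes had levels most like those of APOE over the 6 libraries? By Pearson correlation of log2(FPKM + 1), ZBTB49 (r = 0.998), LOC100506548 (0.997), FOXN3-AS1 (0.996), OAZ3 (0.996) and RNASEH1-AS1 (0.995) ranked first among 11864 genes. FOXN3-AS1, an antisense transcript, was at 3.52, 7.28 and 10.8 FPKM in DU145 and at 0.463, 0 and 0.490 FPKM in 769-P. APOC1 had r = 0.972 and rank 286. The 6 libraries form a cluster per line, so any gene that is high in DU145 scores well: 944 genes (7.96%) had r of at least 0.95, and these values are a description.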

How the data were processed

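Polyadenylated RNA of 6 libraries was sequenced by the authors. The deposited files give FPKM per gene, with reads mapped to hg19 by TopHat2 after FastQC and cutadapt, per the labels and methods; no counts were used, and depth is known only as a ratio. The methods state 2 replicates per sample, whereas the labels give 1 library each, so p-values measure only the spread between these libraries.

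Repeated symbols were summed, and 525 rows with combined gene names were kept apart. Changes are differences of log2(FPKM + 1). Genes that averaged at least 1 FPKM were tested with limma 3.58.1 (trend, 4 groups, Benjamini-Hochberg over all 11865 genes) in R 4.3.3. Called in fold terms means at least 1.5-fold with both siRNAs. Genes named besides the 9 are SPOP, up to 3 per list and line past 1.5-fold, the neighbours of APOE and the 5 most correlated genes. The 9 genes and all lists were chosen with earlier results of these data known. Positions are from GENCODE on GRCh37 and promoters from RefSeq (GRCh38.p14 table), each matched once to GRCh37. Alternatives covered the added value, filters, scaling, block and left-out libraries.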

Additional observations from a re-analysis of the deposited data

Results flagged for a closer look

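For 2 genes, APOE and ABCA1, every knockdown library of DU145 stood above its control and every knockdown library of 769-P below its own. For each of them 1 of these changes was very small, and ABCA1 was low in DU145 NC (0.691 FPKM). The share of all genes with this pattern was not counted, so nothing is read from it. The mean change of APOE in log2(FPKM + 1) was higher by 1.88 in DU145 than in 769-P, and that of ABCA1 by 0.87. The difference was not tested, since the knockdown contrast had chosen the genes. For ABCA1 the DU145 change rests on siRNA 1 (0.89 against 0.06), and for APOE the 769-P change rests on siRNA 1 (-0.94 against -0.03).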

How the results depend on the processing

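Of the 7 genes, 2 were past 1.5-fold with both siRNAs in DU145, and 1 (APOE) at 2-fold. Without SPOP siRNA 1 or 2 the count was between 2 and 5 in DU145 and between 0 and 3 in 769-P. The share of all genes was not counted for a single siRNA, so nothing is read from this range. In 769-P the main count was 0, and after subtracting the median change of all genes it was 1 (NR1H2). With no filter on low values, 1 of 129 pathway genes, APOC3, listed at 0.464 FPKM in DU145 NC and at 0 in the other libraries, passed limma for the knockdown in DU145. In that setting 678 of all 19959 genes passed in DU145. The APOC3 level in DU145 NC lies close to the mean of the olfactory receptor genes there, 0.345 FPKM, so nothing is read from this call. Between 4 and 5 of the genes differed between the lines under each of the 14 alternatives. Of all genes, 45.5% were called in the main setting. In the alternatives that kept all 6 libraries this share ran from 28.4% (no filter) to 53.2% (replicate block). With no filter ABCG1 passed and LPCAT3 did not (limma adjusted p = 0.0855). Quantile normalization moved the median line difference of all genes from 0.16 to -0.05 and the share of calls that were higher in DU145 from 64.6% to 48.4%, and the same 5 genes were called. Leaving out a library can leave an arm with 1 sample, which is then assumed to vary like the others; without 769-P siRNA 1 the line calls over all genes went from 5395 to 3040, without 769-P siRNA 2 also to 3040. The siRNA numbers are shared by the lines, and with the replicate block 5 of the genes differed, among 6310 line calls over all genes. As a check of that pairing, the difference between siRNA 2 and siRNA 1 had a correlation of 0.27 across genes between the lines; with 2 pairs the libraries share only a number. With 1 control per line and no counts, neither the error of a control nor that of a low value can be given.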
